A study of Mus musculus with 15 samples.

Results

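The collagen genes are the alpha chains of the collagen family, the most abundant structural proteins of the extracellular matrix. They were taken from the deposited gene table as every protein-coding gene whose name is Col, a type number, a and a chain number, which gave 44 of 54532 genes. The table describes left ventricles of mice after a myocardial infarction, with and without the compound GSK-343, an inhibitor of the histone methyltransferase EZH2. Of the 44 genes, 11 encode fibrillar chains, 11 encode basement membrane and network chains, 6 encode type VI chains and 16 encode other chains, and 25 passed the filter on low values and were tested.

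Collagen chains are made on the rough endoplasmic reticulum, where prolines and lysines are hydroxylated and the chains wind into a helix. Fibrillar collagens are then trimmed, laid into fibrils and cross-linked by lysyl oxidases, whereas type IV chains form the sheet of basement membranes under endothelium and around muscle fibres. In the heart, fibroblasts make most of the fibrillar chains, and after an infarction types I and III form the scar that takes the place of lost muscle.

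All animals were female C57BL/6JRj mice, 12 to 18 weeks of age, and RNA was taken from the left ventricle 8 days after surgery. Hearts of the GSK group came from mice given 20 mg/kg of GSK-343 in 20% captisol, injected into the peritoneum from 6 h after surgery and then daily to day 7. The MI group had the left descending coronary artery tied off for good and received the captisol vehicle, and the Sham group received the vehicle without an infarction. The names of the GSK libraries give the compound and not the surgery, so these hearts are taken as infarcted from the protocol text. The ligation was permanent, so the tissue was not reperfused, and Sham replicates 1 and 2 are each RNA mixed from 2 animals. Each group has 5 libraries, and each library is taken as 1 biological replicate.

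Values are in FPKM (fragments per kilobase of gene, scaled between libraries), so levels can be compared between genes per length. The libraries held 21.5 M to 26.8 M fragments, and 1 fragment on a gene of 1 kb is worth 0.0357 to 0.0478 FPKM. GSK replicates 3 and 4 and MI replicate 4 stood apart in mitochondrial transcripts, which took 40.6% to 48.7% of all FPKM there, against 31.8% to 32.7% in the other GSK libraries, 23.2% to 27.6% in the other MI libraries and 41.2% to 42.2% in Sham libraries. Counts of called genes are given with and without these 3 libraries. Cardiomyocyte markers identified the tissue, with Actc1 at a mean of 6651 FPKM, and the skeletal muscle myosin Myh4 was at 0 in every library. A bulk library cannot tell fewer cells of a type from less RNA per cell.

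Collagen RNA was more abundant in GSK and MI hearts than in Sham hearts, by the sum over the family. The 44 genes summed to 1957, 687, 593, 684 and 1404 FPKM in GSK replicates 1 to 5, to 1110, 2007, 2183, 1153 and 1097 FPKM in MI replicates 1 to 5, and to 394, 356, 364, 275 and 299 FPKM in Sham replicates 1 to 5. Every GSK and MI library lay above every Sham library, while GSK libraries covered a wider range than MI libraries and overlapped them. The sums averaged 1065 ± 596 FPKM in GSK hearts, 1510 ± 538 FPKM in MI hearts and 337 ± 48.9 FPKM in Sham hearts (SD, n = 5 each).

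The make-up of the collagen RNA also differed in the values. Fibrillar chains took 46.1% ± 11.8 of collagen FPKM in GSK hearts, 52.1% ± 7.30 in MI hearts and 33.3% ± 2.88 in Sham hearts (SD, n = 5 each). The lowest MI library had 44.8% and the highest Sham library 37.7%, so these groups did not overlap, whereas GSK libraries ran from 35.8% to 66.0%. Basement membrane and network chains took 38.3% in GSK, 34.4% in MI and 47.4% in Sham hearts, type VI chains took 12.1% in GSK, 10.2% in MI and 15.4% in Sham hearts, and the other chains took 3.50% in GSK, 3.19% in MI and 3.88% in Sham hearts. The chains of types I and III alone made up 38.9% of collagen FPKM in GSK, 44.6% in MI and 25.6% in Sham hearts. These shares are descriptions and were not tested.

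**Figure D1:**
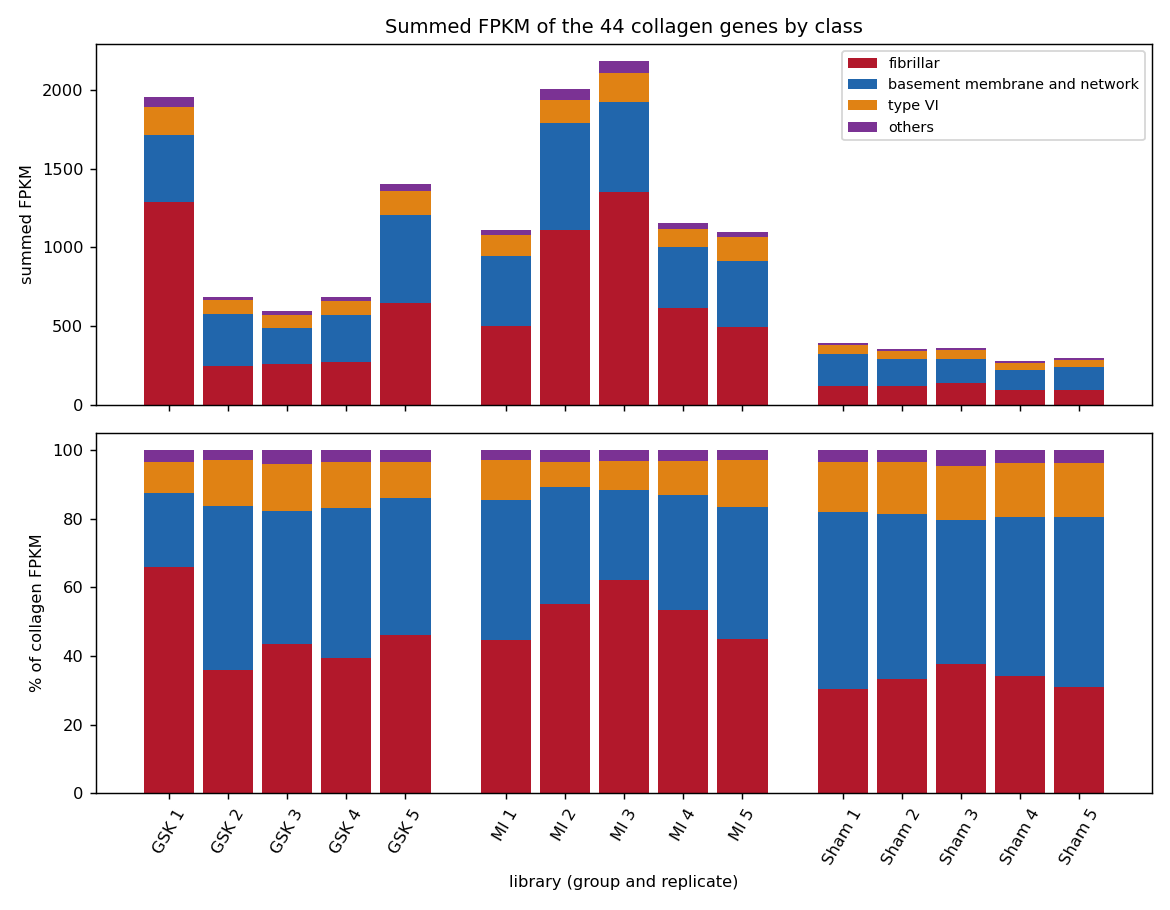
Summed FPKM of the 44 collagen genes (upper panel) and the percent of that sum in each class (lower panel), 1 bar per library, with GSK, MI and Sham replicates 1 to 5 from left to right. The bars of Sham libraries end at 394 FPKM or less, and the fibrillar share is highest in GSK replicate 1 (66.0%) and MI replicate 3 (62.1%).

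Most of the tested collagen genes were higher in MI than in Sham hearts. By limma on log2(FPKM + 1), 19 of 25 were called higher and 1 lower, at a Benjamini-Hochberg adjusted p under 0.05 over all genes. Of all 12585 tested genes 21.9% were called higher and 21.9% lower. Of the 19, Col9a2 and Col12a1 passed the filter through GSK and MI libraries alone. Col6a6, the gene called lower, passed it through 4 Sham libraries and 1 GSK library. The direction that could be seen was thus set by the filter for these genes. A stricter filter of 1 FPKM in 10 libraries leaves out Col9a2 and Col6a6 among others, but keeps Col12a1 through 5 GSK and 5 MI libraries. It called 18 of 21 higher, Col12a1 among them, and 0 lower, with 2463 and 2570 of 11567 genes. The groups did not overlap for 18 of the 25 in the higher and for 1 in the lower direction, against 15.7% and 14.2% of all tested genes. The median log2 difference of the 25 was 1.53, against -0.02 over all tested genes. At an unadjusted p under 0.05, 21 were higher and 1 lower, against 25.5% and 26.3% of all tested genes. Without the 3 libraries that stood apart, 21 were called higher and 1 lower, with 2867 and 2977 of all 12585 genes. Scaling by the totals of nuclear protein-coding genes, tested on 11234 such genes, called 3168 higher and 1940 lower. The deposited scaling called 2757 and 2758 of 12585 genes, so the set of genes differed as well. With nuclear totals 21 of the 25 collagen genes were higher and 1 lower.

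Between GSK and MI hearts no collagen gene passed the test. The count was 0 of 25, and 0% of all 12585 genes were called in either direction by limma, the lowest adjusted p being 0.0536. At an unadjusted p under 0.05, 3 collagen genes were higher and 2 lower in GSK hearts, against 10.8% and 10.1% of all tested genes. A limma voom fit on recovered fragments called 2 genes of the whole table and 0 collagen genes. The log2 difference was below 0 for 21 of the 25, against 6237 of all 12585 tested genes, and the median was -0.40, against 0.00 over all tested genes. Without the 3 libraries that stood apart the count of called genes was again 0 of 25 and the median was -0.23. No collagen gene had groups that did not overlap, where 1.15% of all tested genes did so in the higher and 0.858% in the lower direction.

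Compared with Sham hearts, GSK hearts had 20 of 25 collagen genes called higher and 0 lower, where 10.8% of all tested genes were called higher and 7.58% lower. The 20 include Col9a2, Col12a1 and Col4a3, which reached 1 FPKM in 0 Sham libraries, so a rise was the direction that could be seen. The stricter filter called 18 of 21 higher and 0 lower, with 1233 and 879 of 11567 genes. Col12a1 is among the 18, since this filter still keeps it through GSK and MI libraries alone. At an unadjusted p under 0.05, 1 of the 25, Col6a6, was lower, against 16.6% of all tested genes. The groups did not overlap for 18 of the 25 in the higher and for 0 in the lower direction, against 10.6% and 7.79% of all tested genes, and the median log2 difference was 1.09. Without the 3 libraries that stood apart 20 were higher and 0 lower, with 1632 and 1075 of all 12585 genes. Without the 2 mixed Sham libraries 14 were called higher, with 779 of all 12585 genes, against 1354 with all libraries. Without GSK replicates 1 and 2, whose names carry a G, 15 were, with 792 of all genes. Leaving out 1 library at a time gave 15 to 20, with 773 to 1355 of all genes. GSK against MI and MI against Sham share the MI libraries, and the comparisons with Sham share the Sham libraries, so the differences are given side by side and are not independent of each other.

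**Figure D2:**
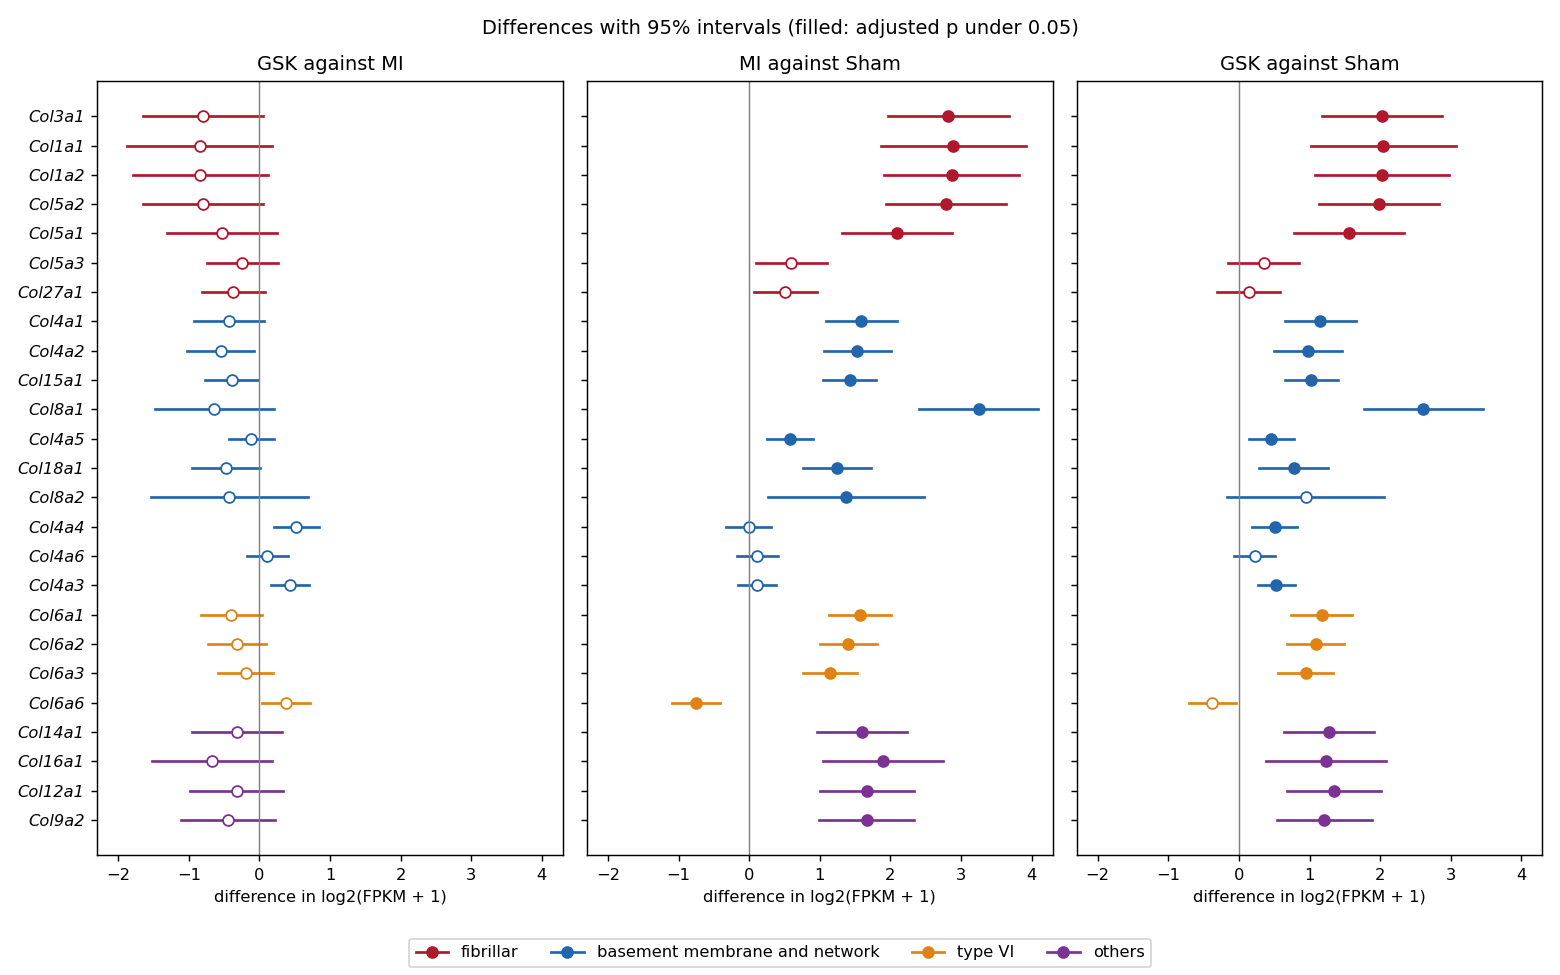
Log2 differences with 95% intervals for the 25 tested collagen genes, by class, for GSK against MI, MI against Sham and GSK against Sham; filled points have an adjusted p under 0.05. All points are open in GSK against MI, where the intervals of Col4a2, Col15a1, Col4a3, Col4a4 and Col6a6 do not reach 0, and Col8a1 lies farthest to the right in MI against Sham at 3.25.

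Among the fibrillar chains, Col3a1, which encodes the only chain of type III, had the highest level per length of the family by the mean over all 15 libraries, while in Sham hearts Col4a1 and Col4a2 were above it. Col3a1 (chr1:45311538-45349706 on mm10, plus strand) had 537, 97.6, 114, 111 and 270 FPKM in GSK replicates 1 to 5, 223, 412, 519, 286 and 211 FPKM in MI replicates 1 to 5, and 41.2, 42.0, 55.3, 38.8 and 39.6 FPKM in Sham replicates 1 to 5. Each GSK and MI library exceeded the highest Sham library, and GSK replicate 1 exceeded every MI library while GSK replicates 2, 3 and 4 lay under all of them. The level rose in MI against Sham hearts by 2.82 ± 0.40 on the log2(FPKM + 1) scale (SE, n = 5 each, adjusted p = 0.000102). Its log2 difference between GSK and MI hearts was -0.80 with a 95% interval of -1.65 to 0.05 (adjusted p = 0.267), and that of GSK from Sham hearts was 2.03 (adjusted p = 0.00442).

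Type I collagen, the main component of scar and tendon fibrils, is built from the chains of Col1a1 and Col1a2. Col1a1 (chr11:94936224-94953042, plus strand) had 393, 62.0, 64.7, 65.8 and 172 FPKM in GSK, 124, 322, 434, 138 and 142 FPKM in MI and 32.5, 31.2, 31.7, 21.2 and 19.0 FPKM in Sham replicates 1 to 5. Col1a2 (chr6:4504814-4541544, plus strand) had 212, 36.6, 41.1, 41.9 and 99.1 FPKM in GSK, 71.5, 191, 240, 103 and 75.0 FPKM in MI and 17.2, 18.3, 18.9, 12.2 and 12.8 FPKM in Sham replicates 1 to 5. For both genes the Sham libraries lay below all others, and the high libraries were GSK replicates 1 and 5 and MI replicates 2 and 3, as for Col3a1. Col1a1 rose in MI against Sham hearts by 2.89 ± 0.48 (SE, adjusted p = 0.000321) and Col1a2 by 2.87 ± 0.45 (adjusted p = 0.000197). Between GSK and MI hearts the log2 difference of Col1a1 was -0.84 (interval -1.87 to 0.18, adjusted p = 0.322) and that of Col1a2 was -0.84 (interval -1.79 to 0.11, adjusted p = 0.292). Against Sham hearts the GSK values were higher by 2.05 for Col1a1 (adjusted p = 0.0111) and by 2.03 for Col1a2 (adjusted p = 0.00801).

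Type V chains join type I fibrils and limit their width. Col5a2 averaged 32.1 ± 20.9 FPKM in GSK, 54.8 ± 29.6 FPKM in MI and 6.28 ± 1.30 FPKM in Sham hearts, and rose in MI against Sham by 2.78 ± 0.40 (SE, adjusted p = 0.000112). Col5a1 averaged 32.2 ± 21.7 FPKM in GSK, 42.3 ± 17.7 FPKM in MI and 8.65 ± 1.63 FPKM in Sham hearts, and rose in MI against Sham by 2.09 ± 0.36 (SE, adjusted p = 0.000430). For both genes the Sham libraries lay below every other library. Col5a3, the third type V chain, averaged 11.2 ± 3.30 FPKM in GSK, 13.8 ± 4.70 FPKM in MI and 8.36 ± 1.28 FPKM in Sham hearts. Its log2 difference in MI against Sham was 0.60 ± 0.24 and did not pass (adjusted p = 0.0533). MI replicate 4, at 6.37 FPKM, lay below all Sham libraries, and the other MI libraries lay above them. Without MI replicate 4 the adjusted p was 0.00266, and without the 3 libraries that stood apart it was 0.000595.

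Col27a1, a fibrillar chain best known from cartilage, had the smallest log2 difference in MI against Sham among the 7 tested genes of the class. Its levels were 2.22, 1.09, 0.796, 0.973 and 1.89 FPKM in GSK, 1.26, 3.91, 2.78, 1.45 and 1.43 FPKM in MI and 0.862, 1.09, 1.29, 1.35 and 1.02 FPKM in Sham replicates 1 to 5. MI replicates 2 and 3 were high, and MI replicate 1 lay within the range of the Sham libraries. The log2 difference was 0.51 ± 0.21 in MI against Sham (SE, adjusted p = 0.0595) and -0.37 in GSK against MI (adjusted p = 0.315), and 5 of the 21 alternative settings called the first, among them those without MI replicate 1 (adjusted p = 0.0317), MI replicate 4 (adjusted p = 0.0450) and MI replicate 5 (adjusted p = 0.0422). In the whole class 5 of 7 tested genes rose in MI against Sham hearts, against 21.9% of all tested genes, with a median log2 difference of 2.78. All 7 had a difference below 0 in GSK against MI without passing the test, against 6237 of all 12585 tested genes. The collagen genes moved between libraries in common, so these 7 signs are not separate observations.

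**Figure D3:**
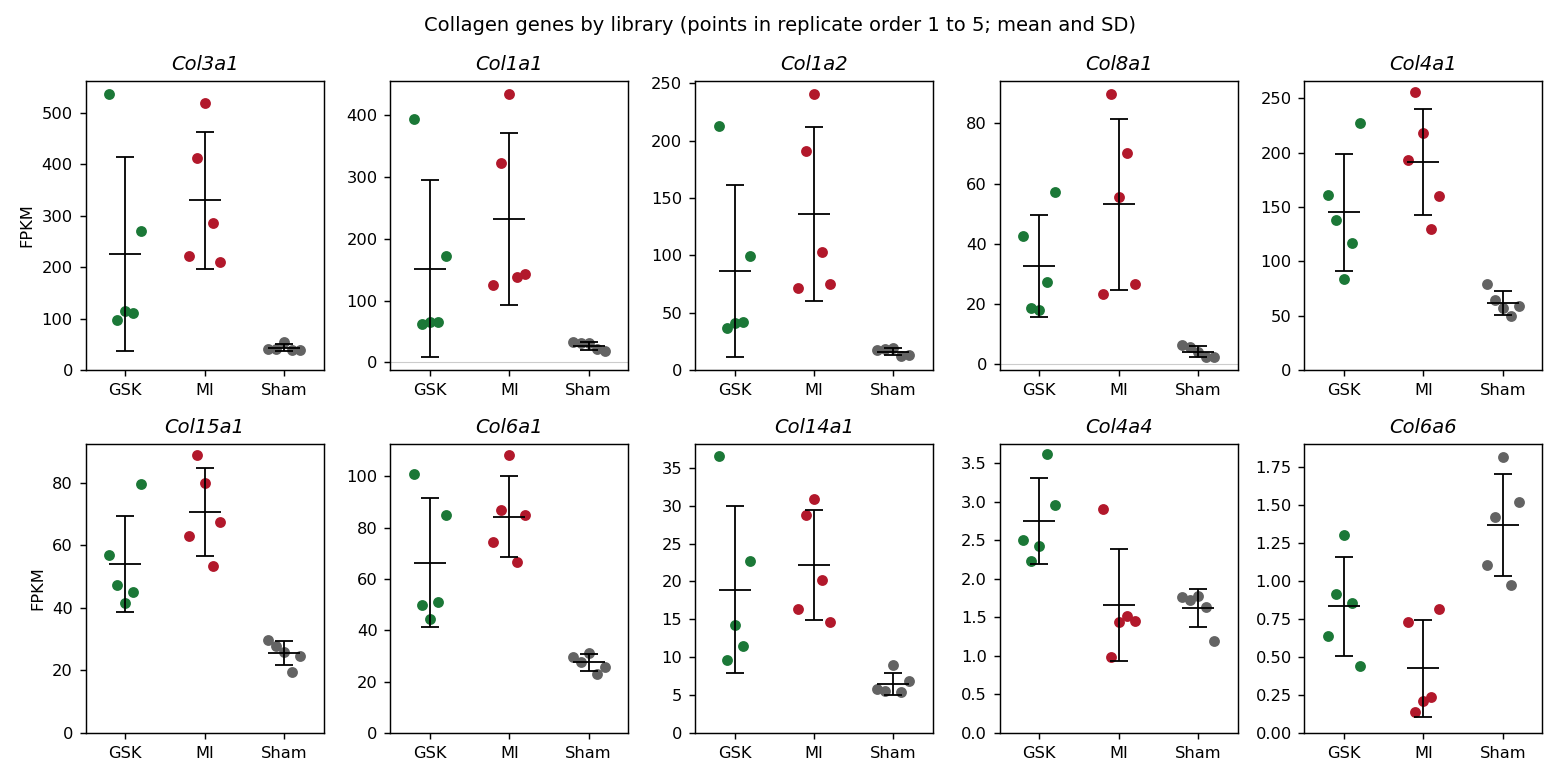
FPKM of 10 collagen genes in each library, with GSK, MI and Sham from left to right, points in replicate order and bars for the mean and SD of 5 libraries. GSK replicate 1 is the highest GSK point for Col3a1 (537), Col1a1 (393) and Col1a2 (212), and Sham libraries lie lowest in all panels except those of Col4a4 and Col6a6.

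Promoter windows are shown for 3 genes with large log2 differences in MI against Sham. RefSeq promoter windows (GRCm38.p6, 250 bases before to 50 after the start) were found for 35 of the 44 genes, 38 windows in all. They were searched on both strands for CCAAT, for TATAAA and for GGGCGG, and capitals mark each match. On the opposite strand CCAAT reads ATTGG; likewise TATAAA reads TTTATA, while GGGCGG reads CCGCCC. No matches overlap in the windows printed. The windows of Col3a1 (chr1:45311288-45311587, plus strand), Col1a2 (chr6:4505368-4505667, plus strand) and the network chain Col8a1 (chr16:57754688-57754987, minus strand) read, 5′ to 3′:
Col3a1: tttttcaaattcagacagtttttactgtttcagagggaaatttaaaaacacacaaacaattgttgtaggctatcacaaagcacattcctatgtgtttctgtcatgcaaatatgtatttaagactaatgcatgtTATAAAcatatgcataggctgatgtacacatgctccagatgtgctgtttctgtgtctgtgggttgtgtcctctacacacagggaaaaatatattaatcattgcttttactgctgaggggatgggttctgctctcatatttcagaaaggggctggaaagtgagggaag
Col1a2: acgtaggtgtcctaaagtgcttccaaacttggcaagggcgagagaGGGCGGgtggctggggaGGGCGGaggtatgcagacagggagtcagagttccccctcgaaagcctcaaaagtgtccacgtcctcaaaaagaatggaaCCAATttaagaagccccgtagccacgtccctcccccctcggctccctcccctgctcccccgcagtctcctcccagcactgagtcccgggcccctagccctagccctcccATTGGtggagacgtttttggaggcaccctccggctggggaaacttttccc
Col8a1: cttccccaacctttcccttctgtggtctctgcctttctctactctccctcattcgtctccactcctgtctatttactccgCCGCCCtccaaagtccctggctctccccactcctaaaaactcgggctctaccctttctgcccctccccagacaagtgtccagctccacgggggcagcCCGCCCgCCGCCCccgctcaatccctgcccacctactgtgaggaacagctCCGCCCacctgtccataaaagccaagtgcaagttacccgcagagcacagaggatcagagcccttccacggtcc
The Col3a1 window holds a TATAAA and neither of the others, the Col1a2 window holds 2 CCAAT and 2 GGGCGG, and the Col8a1 window holds 4 GGGCGG. Of all 32851 windows in the table, 37.4% hold CCAAT, 13.6% hold TATAAA and 35.7% hold GGGCGG, against 34.2%, 13.2% and 60.5% of the 38 collagen windows. A match says only that these letters occur there.

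The basement membrane and network class was led by Col4a1 and Col4a2, which encode the chains found together in nearly every basement membrane. Col4a1 (chr8:11198423-11312826, minus strand) had 161, 138, 84.2, 117 and 227 FPKM in GSK, 193, 256, 218, 130 and 160 FPKM in MI and 79.0, 64.7, 57.7, 49.5 and 59.3 FPKM in Sham replicates 1 to 5. Col4a2 (chr8:11312805-11449287, plus strand) had 117, 103, 62.3, 84.9 and 158 FPKM in GSK, 141, 196, 172, 107 and 135 FPKM in MI and 68.1, 54.9, 45.5, 40.4 and 46.7 FPKM in Sham replicates 1 to 5. All MI libraries exceeded all Sham libraries for both genes, and the lowest GSK library, replicate 3, lay above all Sham libraries for Col4a1 and below the highest one for Col4a2. Col4a1 rose in MI against Sham by 1.59 ± 0.23 (SE, adjusted p = 0.000135) and Col4a2 by 1.53 ± 0.22 (adjusted p = 0.000128). In GSK against MI the log2 difference was -0.43 for Col4a1 (interval -0.93 to 0.07, adjusted p = 0.299) and -0.55 for Col4a2 (interval -1.03 to -0.07, adjusted p = 0.184), and the second has an unadjusted p of 0.0266. In GSK against Sham it was 1.16 for Col4a1 (adjusted p = 0.00523) and 0.98 for Col4a2 (adjusted p = 0.00963). The call of Col4a2 was lost without GSK replicates 1 and 2 (adjusted p = 0.0507).

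Col15a1 and Col18a1 encode chains that join basement membranes to the matrix around them. Col15a1 (chr4:47208161-47313167, plus strand) had 56.9, 47.2, 41.5, 45.2 and 79.7 FPKM in GSK, 63.1, 89.0, 80.0, 53.3 and 67.4 FPKM in MI and 29.8, 27.8, 25.7, 19.6 and 24.8 FPKM in Sham replicates 1 to 5. Every GSK and MI library exceeded the highest Sham library. Col15a1 rose in MI against Sham by 1.42 ± 0.18 (SE, adjusted p = 4.69e-05), and its log2 difference in GSK against MI was -0.39 (interval -0.77 to -0.02, adjusted p = 0.220). Col18a1 averaged 7.71 ± 2.92 FPKM in GSK, 11.01 ± 3.40 FPKM in MI and 3.91 ± 0.622 FPKM in Sham hearts, rose in MI against Sham by 1.25 (adjusted p = 0.000584) and rose in GSK against Sham by 0.77 (adjusted p = 0.0298). That call was lost in 8 of 21 alternative settings, among them those without GSK replicate 1 or 5 and without Sham replicate 2, 4 or 5, with adjusted p of 0.0575 to 0.0804 in these.

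On the log2(FPKM + 1) scale the largest difference of the 25 tested genes in MI against Sham was that of Col8a1, a short network chain made by endothelial and smooth muscle cells. Col8a1 (chr16:57624258-57754737, minus strand) had 42.6, 18.6, 18.0, 27.4 and 57.3 FPKM in GSK, 23.5, 89.7, 55.7, 70.1 and 26.6 FPKM in MI and 6.47, 5.72, 4.07, 2.44 and 2.62 FPKM in Sham replicates 1 to 5. The GSK and MI libraries overlapped and all lay above the Sham libraries. It rose in MI against Sham by 3.25 ± 0.40 (SE, adjusted p = 3.96e-05) and in GSK against Sham by 2.61 (adjusted p = 0.000841), and its log2 difference in GSK against MI was -0.64 (interval -1.48 to 0.20, adjusted p = 0.357).

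Its partner Col8a2 was less even. It had 10.6, 2.52, 1.69, 2.46 and 6.04 FPKM in GSK, 2.07, 15.6, 15.3, 3.51 and 2.16 FPKM in MI and 2.13, 2.85, 1.85, 0.798 and 0.651 FPKM in Sham replicates 1 to 5. Only MI replicates 2, 3 and 4 lay above the highest Sham library. It was called higher in MI against Sham at 1.37 ± 0.52 (SE, adjusted p = 0.0444), a call lost in 11 of 21 alternative settings. Among them were those without MI replicate 2 (adjusted p = 0.118) or 3 (adjusted p = 0.120) and without Sham replicate 1, 3, 4 or 5 (adjusted p = 0.0558 to 0.1002). Chondrocyte markers summed to 36.4, 42.8, 39.6, 9.18 and 8.09 FPKM in Sham replicates 1 to 5. Replicates 4 and 5 were lowest for this sum and for Col8a2, and also for Col8a1 and Col12a1. This was not particular to these genes. Sham replicate 4 was the lowest Sham library for 14 of the 25 tested collagen genes and replicate 5 for 10, against 20.5% and 17.0% of all tested genes. The sum was 39.6, 27.1, 48.1, 66.0 and 47.3 FPKM in GSK and 18.6, 60.7, 42.5, 42.8 and 27.4 FPKM in MI replicates 1 to 5. In GSK hearts the sum was highest in replicate 4 and Col8a2 in replicate 1, while in MI hearts both were highest in replicate 2. Comp and Chad had the highest means of these markers, at 25.4 and 8.53 FPKM. Of the 8 markers 3 passed the filter, Matn1 reached at most 0.0372 FPKM, and their part in the result was not tested.

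The remaining type IV chains, which replace or accompany the common ones in certain basement membranes such as that of the kidney glomerulus, were low in these hearts. Col4a5 was the most abundant of them at 17.3, 9.52, 9.90, 10.9 and 15.05 FPKM in GSK, 12.8, 17.7, 13.6, 11.8 and 11.5 FPKM in MI and 8.79, 8.72, 9.58, 8.40 and 7.62 FPKM in Sham replicates 1 to 5. MI libraries all lay above Sham libraries and the rise was 0.58 ± 0.15 (SE, adjusted p = 0.00623), while the rise in GSK against Sham of 0.46 (adjusted p = 0.0461) was lost in 12 of 21 alternative settings. These included the settings without GSK replicate 1, 4 or 5 and without each single Sham library, with adjusted p of 0.0533 to 0.117. Col4a6 stayed between 0.617 and 1.77 FPKM in all libraries and passed in no comparison.

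Among the 25 tested genes, Col4a3 and Col4a4 had the lowest unadjusted p in GSK against MI, and both were higher in GSK hearts. Col4a4 (chr1:82448423-82586849, minus strand) had 2.4995, 2.23, 2.43, 3.62 and 2.96 FPKM in GSK, 2.90, 0.990, 1.44, 1.52 and 1.45 FPKM in MI and 1.76, 1.72, 1.78, 1.64 and 1.19 FPKM in Sham replicates 1 to 5. Col4a3 (chr1:82586921-82722059, plus strand) had 1.24, 1.14, 1.17, 1.82 and 1.53 FPKM in GSK, 1.37, 0.552, 0.673, 0.801 and 0.533 FPKM in MI and 0.922, 0.682, 0.614, 0.587 and 0.424 FPKM in Sham replicates 1 to 5. For both genes all GSK libraries lay above all Sham libraries, and MI replicate 1 was the only MI library within the range of the GSK libraries. In GSK against MI the log2 difference of Col4a4 was 0.52 (interval 0.20 to 0.84, unadjusted p = 0.00331, adjusted p = 0.114), and that of Col4a3 was 0.43 (interval 0.16 to 0.69, unadjusted p = 0.00398, adjusted p = 0.116). Neither passed with all libraries. Without MI replicate 1 both passed, Col4a4 with an adjusted p of 0.0162 and Col4a3 with 0.0282, in a fit that called 204 genes higher and 188 lower over the whole table.

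Against Sham hearts the GSK values were higher by 0.51 for Col4a4 (adjusted p = 0.0298) and by 0.53 for Col4a3 (adjusted p = 0.0112). The call of Col4a4 was lost in 8 of 21 alternative settings, among them those without GSK replicate 1, 4 or 5 and without Sham replicate 4 or 5, with adjusted p of 0.0507 to 0.0794 in these. In MI against Sham neither passed, at -0.01 for Col4a4 (adjusted p = 0.964) and 0.11 for Col4a3 (adjusted p = 0.518). Col4a3 reached 1 FPKM in 5 GSK libraries, 1 MI library and 0 Sham libraries, so it was tested mainly because of its level in GSK hearts. A gene on the opposite strand, C430014B12Rik, overlaps 563 bases of its exons (5.65%), and without strand its fragments cannot be told apart from those of Col4a3.

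The 6 type IV genes lie in head-to-head pairs. The annotated starts of Col4a1 and Col4a2 overlap by 22 bases on chromosome 8, those of Col4a4 and Col4a3 are 71 bases apart on chromosome 1, and those of Col4a6 and Col4a5 are 1308 bases apart on chromosome X. The promoter windows are shown for this arrangement. They are chr8:11312777-11313076 (minus strand) for Col4a1, chr8:11312555-11312854 (plus strand) for Col4a2, chr1:82586800-82587099 (minus strand) for Col4a4, chrX:141475169-141475468 (plus strand) for Col4a5 and chrX:141474027-141474326 (minus strand) for Col4a6, with capitals as before.
Col4a1: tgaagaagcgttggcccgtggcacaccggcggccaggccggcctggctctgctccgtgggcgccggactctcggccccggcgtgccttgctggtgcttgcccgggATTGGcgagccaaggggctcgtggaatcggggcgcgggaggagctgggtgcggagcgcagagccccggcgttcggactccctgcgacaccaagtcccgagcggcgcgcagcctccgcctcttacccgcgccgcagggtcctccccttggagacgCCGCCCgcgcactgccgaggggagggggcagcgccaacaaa
Col4a2: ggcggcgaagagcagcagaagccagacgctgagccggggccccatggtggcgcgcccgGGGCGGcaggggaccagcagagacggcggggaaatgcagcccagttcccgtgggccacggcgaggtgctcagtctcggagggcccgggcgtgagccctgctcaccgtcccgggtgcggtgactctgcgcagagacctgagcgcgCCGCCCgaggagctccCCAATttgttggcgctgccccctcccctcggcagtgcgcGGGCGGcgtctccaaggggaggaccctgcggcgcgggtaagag
Col4a4: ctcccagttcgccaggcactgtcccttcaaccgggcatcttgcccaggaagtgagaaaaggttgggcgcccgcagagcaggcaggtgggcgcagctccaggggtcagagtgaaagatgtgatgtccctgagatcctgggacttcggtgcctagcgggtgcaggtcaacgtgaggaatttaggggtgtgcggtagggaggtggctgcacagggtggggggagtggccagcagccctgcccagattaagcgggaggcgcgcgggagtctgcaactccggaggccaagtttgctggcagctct
Col4a5: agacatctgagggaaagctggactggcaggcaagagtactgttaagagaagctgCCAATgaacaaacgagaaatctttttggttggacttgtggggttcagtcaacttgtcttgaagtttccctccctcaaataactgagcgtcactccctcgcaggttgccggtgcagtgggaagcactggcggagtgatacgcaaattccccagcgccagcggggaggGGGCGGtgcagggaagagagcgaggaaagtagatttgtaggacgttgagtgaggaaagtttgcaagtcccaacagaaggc
Col4a6: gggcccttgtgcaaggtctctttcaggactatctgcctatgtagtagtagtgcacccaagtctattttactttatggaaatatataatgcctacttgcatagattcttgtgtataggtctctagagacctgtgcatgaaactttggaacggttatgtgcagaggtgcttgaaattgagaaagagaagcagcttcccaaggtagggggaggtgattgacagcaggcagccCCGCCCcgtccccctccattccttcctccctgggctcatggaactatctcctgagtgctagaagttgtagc
The Col4a1 and Col4a2 windows share 78 bases, and a GGGCGG at chr8:11312812-11312817 falls in both, as CCGCCC in the Col4a1 sequence. The start of Col4a3 lies inside the Col4a4 window, which holds none of the 3 motifs. CpG pairs number 37 in the Col4a1, 33 in the Col4a2, 14 in the Col4a4, 11 in the Col4a5 and 3 in the Col4a6 window, where the median of all windows is 7.

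**Figure D4:**
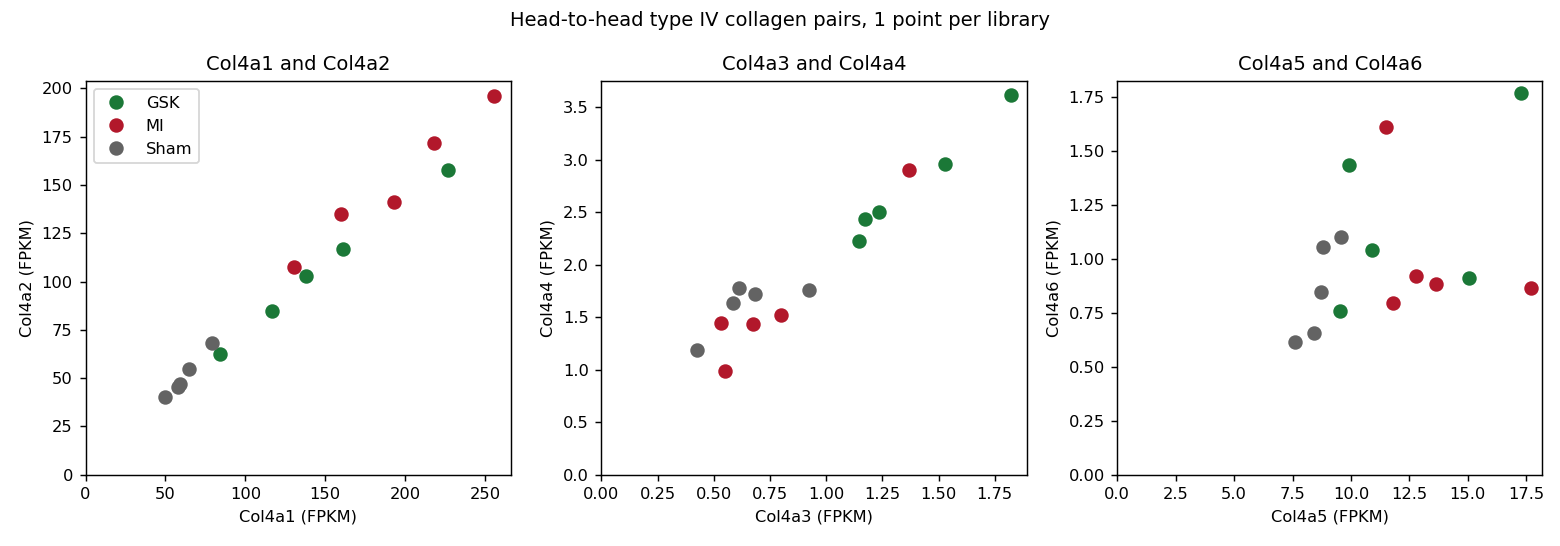
FPKM of the genes of each head-to-head type IV pair, 1 point per library, coloured by group. Sham points fill the low end for Col4a1 and Col4a2, and for Col4a3 and Col4a4 the GSK points and MI replicate 1 (1.37 and 2.90 FPKM) lie above the rest.

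Ratios of chains within a library do not depend on library scaling, and 4 ratios were compared in 2 comparisons by an exact two-sided permutation test, with adjustment over the 8. The ratio of Col1a1 to Col1a2 was 1.69 ± 0.118 in GSK, 1.69 ± 0.211 in MI and 1.70 ± 0.146 in Sham hearts (SD, n = 5 each). The ratio of Col1a1 to Col3a1 was 0.633 ± 0.0629 in GSK, 0.666 ± 0.148 in MI and 0.626 ± 0.134 in Sham hearts. For neither ratio did groups separate. The ratio of Col4a1 to Col4a2 was 1.38, 1.34, 1.35, 1.37 and 1.44 in GSK, 1.37, 1.30, 1.27, 1.21 and 1.19 in MI and 1.16, 1.18, 1.27, 1.23 and 1.27 in Sham replicates 1 to 5. GSK libraries exceeded all MI libraries but replicate 1, with a log2 difference of 0.12 (exact p = 0.0238, adjusted p = 0.0952). The ratio of Col8a1 to Col8a2 ran from 4.002 to 11.1 in GSK, from 3.65 to 19.9 in MI and from 2.01 to 4.03 in Sham hearts, and the log2 difference of MI from Sham was 1.69 (exact p = 0.0159, adjusted p = 0.0952). No ratio passed after adjustment, but the smallest exact p of this design is 0.00794, so a single fully separated ratio would have an adjusted p of 0.0635 and could not pass.

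Type VI collagen forms beaded microfilaments around cells, built in most tissues from the chains of Col6a1, Col6a2 and Col6a3. Col6a1 (chr10:76708792-76726168, minus strand) had 101, 49.9, 44.4, 51.2 and 85.2 FPKM in GSK, 74.5, 87.0, 108, 66.8 and 84.8 FPKM in MI and 29.6, 27.6, 31.3, 23.1 and 25.8 FPKM in Sham replicates 1 to 5. Col6a2 (chr10:76595762-76623630, minus strand) had 53.4, 29.4, 25.7, 28.5 and 47.7 FPKM in GSK, 40.1, 43.6, 56.3, 36.1 and 48.1 FPKM in MI and 18.9, 17.5, 17.2, 13.4 and 14.2 FPKM in Sham replicates 1 to 5. Col6a3 (chr1:90765923-90843971, minus strand) had 19.5, 10.5, 10.8, 12.3 and 16.3 FPKM in GSK, 13.3, 19.0, 19.8, 11.03 and 16.6 FPKM in MI and 7.85, 7.12, 7.02, 5.76 and 5.19 FPKM in Sham replicates 1 to 5. For all 3 genes the Sham libraries lay below every other library, and GSK replicates 2, 3 and 4 were lower than GSK replicates 1 and 5. They rose in MI against Sham by 1.57 ± 0.20 for Col6a1 (SE, adjusted p = 6.06e-05), by 1.40 ± 0.19 for Col6a2 (adjusted p = 7.97e-05) and by 1.14 ± 0.18 for Col6a3 (adjusted p = 0.000225). Between GSK and MI hearts the log2 differences were -0.40 for Col6a1 (interval -0.83 to 0.04, adjusted p = 0.273), -0.32 for Col6a2 and -0.20 for Col6a3, and in GSK against Sham they were 1.17, 1.09 and 0.95, all 3 called.

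Col6a6, which encodes a chain related to that of Col6a3, was the only tested collagen gene that fell in MI against Sham hearts. Col6a6 (chr9:105687809-105828160, minus strand) had 0.641, 0.915, 1.30, 0.858 and 0.443 FPKM in GSK, 0.727, 0.136, 0.207, 0.235 and 0.817 FPKM in MI and 1.11, 1.42, 1.82, 0.972 and 1.52 FPKM in Sham replicates 1 to 5. MI libraries all lay below Sham libraries, and GSK libraries overlapped both groups. The log2 difference was -0.75 ± 0.16 in MI against Sham (SE, adjusted p = 0.00165), 0.37 in GSK against MI (interval 0.04 to 0.71, adjusted p = 0.198) and -0.38 in GSK against Sham (adjusted p = 0.108). It passed the filter through 4 Sham libraries and 1 GSK library, so a lower level in MI was the direction that could be seen, and the stricter filter of 1 FPKM in 10 libraries leaves it out.

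Among the other chains, Col14a1 and Col12a1 encode collagens that sit on the surface of fibrils, and Col16a1 and Col9a2 encode further fibril-associated chains. Col14a1 (chr15:55307750-55520803, plus strand) had 36.6, 9.66, 14.2, 11.5 and 22.7 FPKM in GSK, 16.4, 28.8, 30.8, 20.2 and 14.7 FPKM in MI and 5.86, 5.47, 8.92, 5.38 and 6.79 FPKM in Sham replicates 1 to 5. Col16a1 (chr4:130047840-130099283, plus strand) had 20.4, 5.80, 4.21, 5.17 and 14.5 FPKM in GSK, 10.1, 23.2, 27.05, 8.12 and 9.66 FPKM in MI and 3.83, 3.65, 3.84, 2.15 and 1.95 FPKM in Sham replicates 1 to 5. Col12a1 (chr9:79598991-79718831, minus strand) had 4.60, 1.71, 1.72, 2.81 and 4.96 FPKM in GSK, 1.96, 7.71, 6.06, 3.87 and 2.27 FPKM in MI and 0.988, 0.884, 0.731, 0.192 and 0.146 FPKM in Sham replicates 1 to 5. For these 3 genes every GSK and MI library lay above the Sham libraries, and Sham replicates 4 and 5 were the lowest for Col12a1 and Col16a1. In MI against Sham Col14a1 rose by 1.59 ± 0.30 (SE, adjusted p = 0.000715), Col16a1 by 1.90 ± 0.40 (adjusted p = 0.00155) and Col12a1 by 1.67 ± 0.31 (adjusted p = 0.000681).

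Col9a2, a chain of a cartilage collagen, ran from 0.842 to 3.69 FPKM in GSK, from 0.927 to 5.21 FPKM in MI and from 0.122 to 0.320 FPKM in Sham hearts, and rose in MI against Sham by 1.66 ± 0.31 (SE, adjusted p = 0.000765). A pseudocount of 1 holds down the difference of a gene this low: with 0.1 it was 3.16 for Col9a2 and 3.52 for Col8a1, and in the voom fit 3.68 for Col9a2 and 3.56 for Col8a1. Col9a2 and Col12a1 passed the filter through GSK and MI libraries alone, so a rise was the direction that could be seen. In GSK against MI the 4 log2 differences lay between -0.67 and -0.32 and none passed. In GSK against Sham all 4 were called, Col14a1 at 1.27 (adjusted p = 0.0108), Col16a1 at 1.23 (adjusted p = 0.0440), Col12a1 at 1.34 (adjusted p = 0.0101) and Col9a2 at 1.21 (adjusted p = 0.0174). The call of Col16a1 was lost in 12 of 21 alternative settings, among them those without GSK replicate 1 or 5 and without each single Sham library, with adjusted p of 0.0593 to 0.112 in these, and that of Col9a2 was lost without GSK replicate 5 (adjusted p = 0.0518), without GSK replicates 1 and 2 (adjusted p = 0.0711) and without the mixed Sham libraries (adjusted p = 0.0528). The call of Col14a1 was lost without the mixed Sham libraries (adjusted p = 0.0586).

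Under the filter lay 19 collagen genes, 4 fibrillar, 1 network, 2 type VI and 12 others. Some were still found in single libraries. Col11a1, a chain of cartilage fibrils, had 1.19, 0.142, 0.143, 0.259 and 0.318 FPKM in GSK, 0.0906, 4.57, 2.83, 0.461 and 0.0456 FPKM in MI and 0.106, 0.148, 0.115, 0.0222 and 0.0291 FPKM in Sham replicates 1 to 5. Col24a1, a minor fibrillar chain, had 1.57 FPKM in GSK replicate 1, 1.02 FPKM in MI replicate 3 and at most 0.0359 FPKM in Sham hearts, from 358 fragments in GSK, 452 in MI and 14 in Sham hearts. Col11a1 was high in 1 or 2 libraries of a group and low in the rest. Col24a1 had 0.684, 0.295, 1.02, 0.144 and 0.0611 FPKM in MI replicates 1 to 5, all above the Sham libraries. In GSK hearts only replicate 1 of Col24a1 was high. A fit with no filter did not call Col24a1 in MI against Sham (adjusted p = 0.224). Col2a1 reached 0.514 FPKM and Col10a1, the marker of growth plate cartilage, 0.320 FPKM, both in MI replicate 2. Col10a1 had 19 fragments in all GSK, 46 in all MI and 3 in all Sham libraries.

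Other low chains were more even within groups. Col28a1 had 0.618, 0.453, 0.537, 0.712 and 0.860 FPKM in GSK, 0.843, 1.01, 0.498, 1.21 and 0.546 FPKM in MI and 0.230, 0.230, 0.400, 0.202 and 0.255 FPKM in Sham replicates 1 to 5. Col26a1 ran from 0.145 to 0.414 FPKM in GSK, from 0.286 to 0.355 FPKM in MI and from 0.0443 to 0.0865 FPKM in Sham hearts. GSK and MI libraries lay above Sham libraries for both. Col11a2 ran from 0.700 to 0.975 FPKM in GSK, from 0.259 to 0.899 FPKM in MI and from 0.930 to 1.84 FPKM in Sham hearts, and Col13a1, a membrane collagen, from 0.178 to 0.301 FPKM in GSK, from 0.0727 to 0.334 FPKM in MI and from 0.338 to 0.479 FPKM in Sham hearts. MI libraries lay below Sham libraries for both. Col22a1, a chain of muscle and tendon junctions, had 0.551, 0.274, 0.375, 0.465 and 0.441 FPKM in GSK, 0.214, 0.182, 0.333, 0.213 and 0.122 FPKM in MI and 0.245, 0.218, 0.164, 0.108 and 0.0706 FPKM in Sham replicates 1 to 5. GSK replicate 2 was the only GSK library within the range of MI libraries, and all GSK libraries lay above Sham libraries.

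In a fit with no filter, an alternative setting over 31619 genes, MI against Sham called Col28a1 (adjusted p = 0.00383) and Col26a1 (adjusted p = 0.000908) higher and Col11a2 (adjusted p = 0.00454), Col13a1 (adjusted p = 0.00724) and Col25a1 (adjusted p = 0.0226) lower. The log2 difference of Col25a1 was only -0.05, from 39 fragments in all MI and 86 in all Sham libraries. With the genes already tested, these calls made 20 of 44 higher and 4 lower, where 9.56% of all genes in this fit were called higher and 8.82% lower. GSK against Sham called Col22a1 (adjusted p = 0.0150) and Col26a1 (adjusted p = 0.0161) higher and Col11a2 (adjusted p = 0.0463) lower, in all 18 of 44 higher and 1 lower against 3.23% and 1.87% of all genes, and GSK against MI called none, the lowest unadjusted p being that of Col22a1 (0.00209, adjusted p = 0.214). The remaining genes were low in all libraries. Col20a1 and Col23a1 lay between 0.261 and 0.871 FPKM in all libraries, and Col7a1 between 0.0856 and 0.674 FPKM. Col9a3 stayed at or under 0.352 FPKM, and Col9a1, Col25a1, Col17a1 and Col19a1 at or under 0.115 FPKM. Col6a5 had 84 fragments in GSK, 191 in MI and 7 in Sham libraries, and Col6a4 had 1 in GSK, 10 in MI and 1 in Sham libraries.

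**Figure D5:**
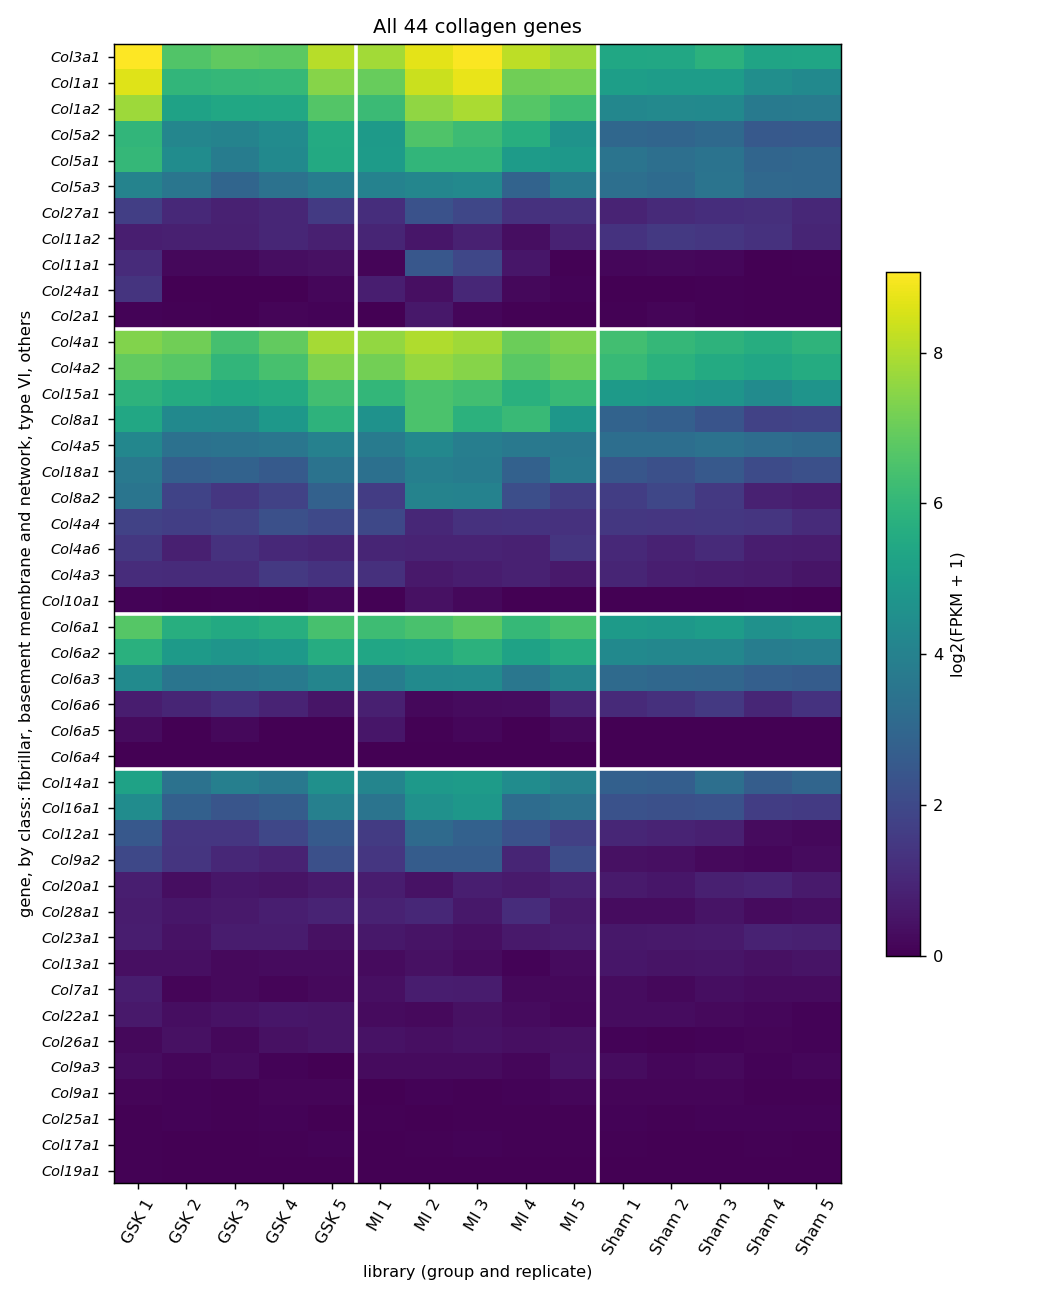
Level of all 44 collagen genes on the log2(FPKM + 1) scale, genes down the page by class and libraries across, with GSK, MI and Sham replicates 1 to 5 from left to right. Col3a1, Col1a1 and Col4a1 are among the brightest, and GSK replicates 1 and 5 and MI replicates 2 and 3 stand out within their groups.

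Within a group the collagen genes moved between libraries in common. GSK replicate 1 was the highest GSK library for 16 of the 25 tested collagen genes, against 19.0% of all tested genes. GSK replicates 1 and 5 were among the upper 2 for 22 and 23 of the 25, against 36.6% and 43.5% of all tested genes. GSK replicates 2 and 3 were the lowest for 10 and 12, against 20.3% and 22.3% of all tested genes. MI replicates 2 and 3 were each among the upper 2 of MI libraries for 20 of the 25, against 41.6% and 34.5% of all tested genes. MI replicate 4 was the lowest for 11, against 22.5% of all tested genes. In Sham hearts replicate 1 was among the upper 2 for 20, against 37.1% of all tested genes. Sham replicates 4 and 5 were the lowest for 14 and 10, against 20.5% and 17.0%. Leaving out GSK replicate 1 moved the median log2 difference of the 25 in GSK against MI to -0.57 with 16 of the 25 at an unadjusted p under 0.05, and leaving out GSK replicate 5 moved it to -0.54 with 12. None of the 25 passed after adjustment in either of these fits, which called 6 genes higher and 1 lower, and 154 higher and 134 lower, over the whole table.

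Macrophage markers moved with the same libraries in GSK and MI hearts, and mesothelial markers with those of GSK hearts. Cardiomyocyte markers, given below, were lowest in these libraries of GSK and MI hearts, and fibroblast markers did not follow them. The mesothelial markers summed to 29.4, 9.46, 8.56, 2.89 and 21.4 FPKM in GSK, 31.6, 17.6, 18.7, 9.95 and 36.0 FPKM in MI and 11.9, 3.001, 12.8, 5.32 and 10.4 FPKM in Sham replicates 1 to 5, highest in GSK replicates 1 and 5 and in MI replicates 1 and 5, which differ from the MI replicates 2 and 3 of the collagen genes. For macrophage markers the summed level was 921, 503, 526, 404 and 688 FPKM in GSK, 656, 901, 988, 769 and 580 FPKM in MI and 273, 285, 342, 286 and 305 FPKM in Sham replicates 1 to 5, highest in GSK replicates 1 and 5 and in MI replicates 2 and 3. All 8 macrophage markers passed the filter and all 8 were called higher in MI against Sham, Cd68 by 2.36, and 7 in GSK against Sham. Of all tested genes 21.9% were called higher in the first comparison and 10.8% in the second. Fibroblast markers summed to 981, 892, 1105, 881 and 862 FPKM in GSK and 888, 649, 784, 847 and 743 FPKM in MI replicates 1 to 5. Their sums were 941 to 1377 FPKM in Sham hearts, and they were lowest in GSK replicate 5 and in MI replicate 2. Of the 8, 5 rose and 1 fell in MI against Sham, where 21.9% of all tested genes were called in each direction. Mfap5 rose by 2.64 and Mfap4 by 2.58, both microfibril proteins of the matrix, and Gsn, an actin-severing protein that holds most of the sum, fell by 1.57. The part of these cell types in the collagen values was not tested.

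The other marker lists are set against 21.9% of all tested genes called higher and 21.9% lower in MI against Sham. Cardiomyocyte markers had 0 higher and 5 lower of 8 tested, among them Pln, Tnni3 and Myh6. Their sums were 12394, 18371, 16263, 15497 and 14572 FPKM in GSK and 15025.5, 10250, 13897, 16084 and 20845 FPKM in MI replicates 1 to 5, and 15250 to 20059 FPKM in Sham hearts. They were lowest in GSK replicates 1 and 5 and in MI replicates 2 and 3, where the collagen genes were high, and this was not tested. Endothelial markers had 3 higher of 8 and sums of 205 to 254 FPKM in GSK, 196 to 290 FPKM in MI and 189 to 203 FPKM in Sham hearts. Mural cell markers had 3 higher and 2 lower of 8, with sums of 618 to 872 FPKM in GSK, 734 to 1347 FPKM in MI and 531 to 718 FPKM in Sham hearts. Mesothelial markers had 3 higher of 7, chondrocyte markers 2 higher of 3, Schwann cell markers 2 lower of 3 and adipocyte markers 3 lower of 6. No member of these lists passed in GSK against MI.

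The genes that make, cross-link, bind and degrade collagen were counted by list. Over all tested genes 21.9% were called higher and 21.9% lower in MI against Sham, and 10.8% and 7.58% in GSK against Sham. Of 19 tested genes for hydroxylation and folding, 13 rose and 1 fell in MI against Sham, with a median log2 difference of 0.73. The largest were P4ha3, a subunit of prolyl 4-hydroxylase, at 1.70, the prolyl 3-hydroxylase P3h3 at 1.12 and the chaperone Fkbp10 at 1.12. The 1 that fell was P3h4, by 0.28 (adjusted p = 0.0162) and it is named here after its value was seen. In GSK against Sham 7 of the 19 were higher and 1 was lower.

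Of 11 tested genes for procollagen processing and cross-linking, 9 rose in MI against Sham and 8 in GSK against Sham, where 21.9% and 10.8% of all tested genes were called higher. Lox, the lysyl oxidase that starts cross-links between fibrillar chains, rose by 4.04 ± 0.68 (SE, adjusted p = 0.000346), Loxl2 by 2.33 ± 0.26 and the procollagen peptidase Adamts2 by 2.02 ± 0.24. Their log2 differences in GSK against MI were -1.21 for Lox (adjusted p = 0.313), -0.53 for Loxl2 and -0.39 for Adamts2, and none passed. Of 6 tested collagen receptors 4 rose in MI against Sham, led by the endocytic receptor Mrc2 at 1.64, Ddr1 at 0.75 and Itga11 at 0.65, and 4 in GSK against Sham. All 4 tested genes of collagen degradation rose in both, in MI against Sham led by Mmp14 at 1.94, Ctsk at 1.79 and Mmp2 at 1.31. Of 6 proteoglycans that bind fibrils 2 rose in both, in MI against Sham Bgn by 2.15 and Lum by 0.76. In GSK against MI none of these 5 lists had a called gene, and their medians were -0.28 for hydroxylation and folding, -0.51 for processing and cross-linking, -0.12 for receptors, -0.39 for degradation and 0.37 for proteoglycans.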

How the data were processed

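Poly-A RNA sequencing (150 nt paired ends) of 15 left ventricle libraries, 5 per group, was analysed from 1 gene table. The authors deposited FPKM values beside each gene's length and position. The submitters' processing notes name build mm10 and the tools HISAT2, Subread, featureCounts, DESeq2 and R 3.5.1, with no roles. The annotation release and strand setting were not given in the sources used here. All 44 collagen genes have the coordinates of GENCODE vM21.

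Each FPKM value times gene length was a whole multiple of a step per library (100% of values within 0.01), which gave 21.5 M to 26.8 M fragments per library. The scaling total in every library was 23.6 M times a median-of-ratios factor, so values are relative to a library's median gene and not to its total.

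Values were transformed as log2(FPKM + 1), which understates the change of low genes. The 12585 genes that reached 1 FPKM in 5 or more of the 15 libraries were fitted with limma 3.58.1 in R 4.3.3 (group means, all 15 libraries, moderated variance with a mean trend), and p-values were adjusted over all of them. The limma fit was tested on simulated counts, drawn independently with the same dispersion for all genes. This does not test the calls of genes that vary more and move together, such as Col1a1 in GSK hearts (152 ± 143 FPKM, SD, n = 5). Chain ratios were compared by exact permutation over 252 assignments. Alternatives varied the pseudocount, filter, scaling, groups fitted, libraries, replicate block and a voom fit on recovered fragments.

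Every collagen gene is accounted for. Values per library are given, in each class, for the 3 tested genes of highest mean, those of largest and smallest difference in MI against Sham, and the 3 of lowest p in GSK against MI, with further members added after their values were seen. The members and the lists of other genes were chosen with earlier results of these data known. Most overlaps with other annotated genes covered under 2% of a collagen gene's length. Intervals cover the spread between libraries.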

Additional observations from a re-analysis of the deposited data

Results flagged for a closer look

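In 4 of 87 groups of 5 libraries that were examined for the tested collagen genes and chain ratios, the highest or lowest library lay far from the rest relative to the whole range of its group, and chance gives this in about 1 in 20 groups. Col3a1, the type III chain, was at 55.3 FPKM in Sham replicate 3, above the other Sham libraries. Col4a4, a type IV chain, was at 2.90 FPKM in MI replicate 1, above the other MI libraries, and its gene pair partner Col4a3 was highest in the same MI library at 1.37 FPKM. Col4a4 was at 1.19 FPKM in Sham replicate 5, below the other Sham libraries. Col4a6 was at 1.61 FPKM in MI replicate 5, above the other MI libraries.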

How the results depend on the processing

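Over 21 alternative settings, or 20 for Col4a3, Col4a6, Col6a6 and Col9a2, which the stricter filter leaves out, the counts of collagen genes called higher in MI against Sham ran from 18 to 21. Over all genes they ran from 2214 of 12585 without the mixed Sham libraries to 3168 of 11234 with nuclear totals. Leaving out 1 library at a time gave 18 to 21 collagen genes higher and 1 lower, with 2402 to 2773 and 2265 to 2909 of all 12585 genes. The number called lower was 4 without a filter and 0 with the stricter filter. In GSK against MI the 25 genes gave 0 to 2 calls when 1 library was left out, the 2 being Col4a3 and Col4a4 without MI replicate 1, and 0 lower. In GSK against Sham 1 gene was called lower without a filter (Col11a2) and 1 with quantile normalization (Col6a6). Single libraries left out gave 15 to 20 higher, with 773 to 1355 of all 12585 genes. Nuclear totals gave 1676 genes higher and 569 lower of 11234 nuclear protein-coding genes in GSK against Sham. The deposited scaling gave 1354 and 954 of 12585 genes, so the set of genes differed as well.

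The chain ratios were not called, but their tests say nothing on stability, since a single fully separated ratio has an adjusted p of at least 0.0635 with all libraries or 1 left out, 0.143 or 0.229 with more left out and 0.5 with the replicate block. The log2 ratio of Col1a1 to Col1a2 in MI against Sham, -0.01 with all libraries, was 0.048 without the mixed Sham libraries and 0.073 without the 3 libraries that stood apart, and that of Col8a1 to Col8a2 in GSK against MI, -0.16 with all libraries, was 0.21 without the GSK libraries whose names carry a G. With 1 library left out, the ratio of Col1a1 to Col1a2 ran from -0.056 to 0.073 in MI against Sham and from -0.083 to 0.042 in GSK against MI, that of Col1a1 to Col3a1 from -0.00456 to 0.19 and from -0.16 to 0.039, and that of Col8a1 to Col8a2 in GSK against MI from -0.49 to 0.12. The difference of Col4a4 in MI against Sham, -0.01, was 0.037 with nuclear totals, 0.038 without the mixed Sham libraries and 7.28e-06 without the 3 libraries, and ran from -0.16 to 0.086 with 1 library left out, while that of Col4a3 ran from -0.00131 to 0.16. These differences lie within their errors.

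With the replicate number as a block, 18 collagen genes were higher and 1 lower in MI against Sham, with 2549 and 2472 of all 12585 genes. In GSK against MI 0 were called, as over all genes. In GSK against Sham 18 were higher and 0 lower, with 924 and 535 of all genes. The numbers did not pair the libraries: deviations of same-numbered libraries correlated at -0.09 to 0.22 in MI against Sham, -0.41 to 0.49 in GSK against MI and -0.20 to 0.03 in GSK against Sham, and 1, 1 and 0 of the 5 numbers correlated best with their own. Depth limits the 19 genes under the filter, some of which rest on fewer than 100 fragments.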
